A study of Mus musculus with 4 samples.

Results

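The genes described here encode the machines that transcribe nuclear DNA: subunits of RNA polymerases I, II and III, of Mediator and of Integrator, and the TBP-associated factors (TAFs). They were taken by symbol, as the rows of the 4 deposited tables that begin with Polr1, Polr2 or Polr3, or with Med, Ints or Taf followed by a number. The rule found 92 of 23420 genes, namely 28 polymerase genes (5 Polr1, 13 Polr2 and 10 Polr3), 30 Mediator genes, 11 Integrator genes and 23 TAF genes. Of these, 91 had at least 100 reads over all replicates and were tested, among 16089 genes tested in all. Taf7l, a germ cell paralog of Taf7, had 11 reads in all replicates together and was not tested.

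Cochleae of postnatal day 1 Atoh1-GFP transgenic mice on a CD1 background, in which an Atoh1 enhancer drives GFP in hair cells, were cultured overnight and then kept for 3 h with 0.5 mM gentamicin or without it. Cells were then sorted into GFP-positive hair cells, the mechanosensory cells of the organ of Corti, and GFP-negative non-hair cells, a mixture of supporting cells, epithelial ridge cells and surrounding tissue. This gave 4 groups of 3 replicates: control hair cells, gentamicin-treated hair cells, control non-hair cells and gentamicin-treated non-hair cells. All carried the transgene and all were cultured, so no group shows uncultured tissue, and no label says how many animals were pooled in a replicate, so that p-values measure the spread between these replicates only.

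RNA polymerase I makes the precursor of ribosomal RNA, RNA polymerase II makes messenger RNA and many small nuclear RNAs, and RNA polymerase III makes transfer RNA and other short RNAs. The SL1 complex, built from TBP and the TAFs Taf1a to Taf1d, brings polymerase I to the ribosomal gene promoter, and TFIID, built from TBP and another set of TAFs, does so for polymerase II at coding genes. Mediator links activators to polymerase II, and Integrator cuts nascent RNA at small nuclear RNA genes and close to many promoters. Aminoglycosides such as gentamicin bind ribosomal RNA and are toxic to hair cells.

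Between 22395037 and 28146016 reads per replicate fell on genes. Within a group, the root mean square log2 difference between replicates over all genes tested was 0.206 to 0.343 in hair cells and 0.261 to 0.530 in non-hair cells. All 8 hair cell markers on a fixed list (Atoh1, Pou4f3 and Myo7a among them) were higher in control hair cells than in control non-hair cells, with summed scores of 11622 to 12052 against 265 to 267. The 8 supporting cell markers were not depleted from the hair cells: their sums were 1232 to 1439 in control hair cells and 788 to 1330 in control non-hair cells, with 1 higher and 1 lower. All 6 mesenchyme, all 5 endothelium and all 5 leukocyte markers, 3 of 6 glia and neuron markers and 1 of 2 erythroid markers were lower in control hair cells. No listed marker was without reads in any group.

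Values below are the deposited scores, which are reads scaled per replicate with 1 added, and differences are on the log2 scale of these scores. A gene was called when limma's adjusted p-value (Benjamini-Hochberg over all genes tested) was under 0.05. Members named for the largest rises and falls in hair cells were picked among those called whose treated and control replicates did not overlap. For them, lack of overlap is part of the choice and adds no support. In bulk RNA, fewer cells of a type and less RNA per cell cannot be told apart.

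In hair cells, transcripts of this machinery were called higher after gentamicin more often than lower. Of the 91 members, 28 rose (30.8%) and 8 fell (8.79%), whereas 14.8% of all genes tested rose and 18.4% fell. With the deposited scores, the 4 groups of subunits were unlike in their counts. Of 22 TAF genes 12 rose and 2 fell, and of 28 polymerase genes 8 rose and 1 fell. Of 11 Integrator genes 3 rose and 2 fell, and of 30 Mediator genes 5 rose and 3 fell. The median log2 change was 0.27 for TAFs, 0.14 for Integrator, 0.09 for the polymerases and 0.01 for Mediator, against -0.09 for all genes tested. Across members, the change was lower at higher mean scores in control non-hair cells (Spearman rho -0.46, against -0.12 over all genes tested). In those cells TAFs had the lowest group median of log2 scores (4.62 to 4.81 per replicate), but Integrator had the highest (5.32 to 5.42). The part of level in these medians was not tested. No test was made between the 4 groups of subunits.

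By the criteria of the study, an unadjusted p under 0.01 with a fold above 1.2, 25 members rose and 5 fell, against 12.7% and 14.8% of all genes. Here and below, these criteria were applied to the limma p-values of this fit. The study used its own gene specific analysis, by which more genes were up-regulated than down-regulated in hair cells. The split of members moved with the scaling, from 28 higher and 8 lower with the deposited scores to 40 higher and 3 lower when each replicate was scaled to its total reads, where Ints2, Ints9, Med12, Med25 and Taf10 were no longer called lower. All genes tested shifted the same way, to 19.8% higher and 12.2% lower. Scaled to total reads, 14 TAF genes were higher and 1 lower, and 10 polymerase genes higher and 1 lower. For Integrator the counts became 6 higher and 0 lower, and for Mediator 10 higher and 1 lower, so that both depended on the scaling. Beside these changes, 2 of 8 supporting cell, 3 of 6 mesenchyme, 2 of 5 endothelium and 1 of 6 glia and neuron markers fell in hair cells after gentamicin. The supporting cell sums were 619 to 1099 after the drug and the mesenchyme sums were 193 to 472 in controls and 107 to 159 after it. The supporting cell markers that fell were Hes5 (-2.02) and Hey1 (-1.32), which the paper lists as Notch target genes. No other marker of that list was called. Whether the falls came from fewer such cells was not tested, nor was the part of these cells in the members' changes.

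**Figure D1:**
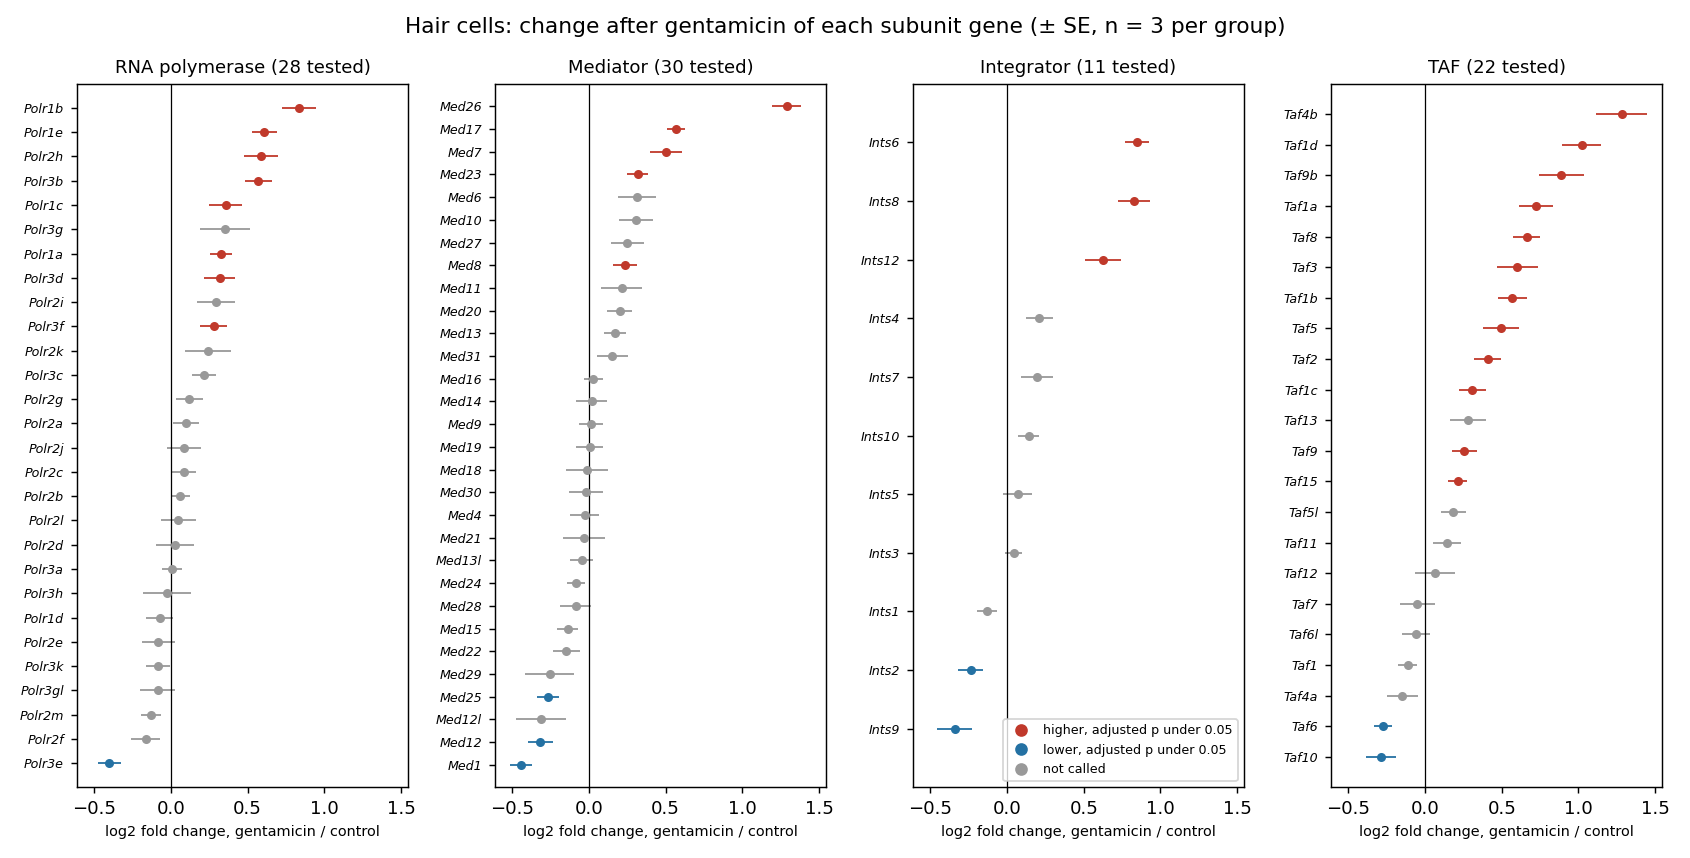
Log2 fold change after gentamicin in hair cells of each of the 91 subunit genes tested, with bars of 1 SE from limma (3 replicates per group), in a panel for each group of subunits; red marks genes called higher, blue those called lower and grey the rest. Med26, Taf4b and Taf1d lie above 1, and no member lies below -0.44.

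All 4 SL1 TAFs were called higher in hair cells, with log2 changes of 0.31 to 1.02, and so were 4 of the 5 Polr1 genes. Of all genes tested, 14.8% were called higher and 18.4% lower. Taf1a, which encodes the smallest of the classical SL1 subunits, had scores of 21.1, 21.2 and 22 in control hair cells and 31.5, 38.0 and 37.0 after gentamicin, a change of 0.72 ± 0.11 (SE, n = 3 per group, adjusted p = 0.000832). The treated replicates all lay above the controls. Taf1b, the SL1 subunit related to TFIIB, went from 23.9, 23.3 and 23.4 to 34.7, 37.7 and 32.6, a rise of 0.57 ± 0.09 (adjusted p = 0.00106). For Taf1c the scores were 32.5, 33.3 and 34.5 before and 38.1, 44.5 and 41.7 after, a smaller rise of 0.31 ± 0.09 (adjusted p = 0.0191). Neither pair of groups overlapped.

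Taf1d had scores of 21.1, 21.3 and 24.1 in control hair cells and 50.9, 49.0 and 36.3 after the drug. This was the largest rise among SL1 TAFs, at 1.02 ± 0.13 (adjusted p = 0.000217), and also the most uneven, since replicate 3 stood well below the other treated replicates. Its exons share bases with 12 other annotated genes, small RNA genes among them, and reads from those could not be told apart from its own. Taf1c shares 584 exon bases with Dnaaf1, whose log2 change was -0.06 (adjusted p = 0.699).

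Polr1b, the second largest subunit of polymerase I, had scores of 21.4, 21.9 and 23.8 in control hair cells and 38.6, 38.9 and 42.3 after gentamicin (0.84 ± 0.11, adjusted p = 0.000356), which was the largest rise among the 28 polymerase genes. Polr1e, a subunit found in polymerase I alone, went from 21.2, 21.7 and 23.1 to 34.0, 34.1 and 32.6 (0.61 ± 0.08, adjusted p = 0.000365). Polr1a, the largest subunit, moved less, from 53.2, 54.3 and 50.7 to 61.2, 65.4 and 72.1 (0.33 ± 0.07, adjusted p = 0.00602). Treated and control replicates did not overlap for any of these genes, which for Polr1b and Polr1e was a condition of naming them. Polr1c, which polymerases I and III share, rose by 0.36 ± 0.11 (adjusted p = 0.0263), and Polr1d, its partner in both enzymes, had a log2 change of -0.07 ± 0.09 (adjusted p = 0.559).

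Polymerase I subunits that the symbol rule leaves out were uneven too. Twistnb rose by 0.84 ± 0.14 (adjusted p = 0.000997), while Znrd1 stood at 0.16 ± 0.16 (adjusted p = 0.466) and Cd3eap at -0.03 ± 0.10 (adjusted p = 0.866). Tbp, the protein that SL1 and TFIID have in common, had a log2 change of -0.16 ± 0.14 (adjusted p = 0.410).

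**Figure D2:**
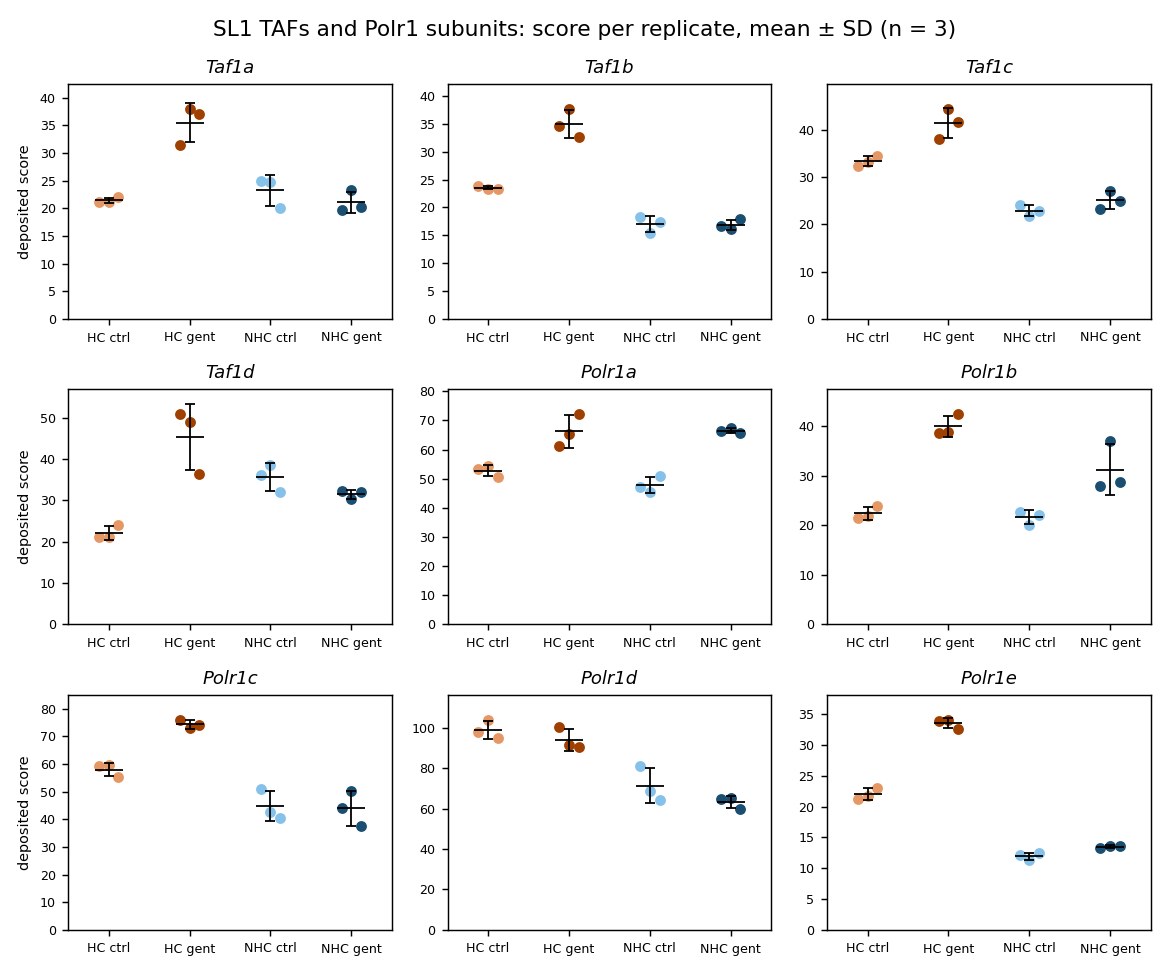
Deposited scores of the 4 SL1 TAFs and the 5 Polr1 genes in each replicate of control (ctrl) and gentamicin-treated (gent) hair cells (HC) and non-hair cells (NHC); black bars give the mean and SD of 3 replicates. The gentamicin-treated hair cells lie above the control hair cells in every panel but Polr1d.

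Of the 8 genes particular to polymerase II, limma called none in hair cells (1 had an unadjusted p under 0.05, 0 were called with voom weights or median-of-ratios scaling, and 1 was called higher with scaling to total reads). Polr2a, the catalytic subunit, had scores of 228, 216 and 226 in control hair cells and 233, 237 and 245 after gentamicin (0.10 ± 0.09, adjusted p = 0.417). All treated replicates of Polr2a lay above its controls, though all values were within a range of 216 to 245. Among the 10 Polr3 genes, 3 rose and 1 fell, where 14.8% of all genes tested rose and 18.4% fell. Polr3b, the second largest subunit of polymerase III, went from 44.4, 39.0 and 44.9 to 60.7, 63.9 and 65.6 (0.57 ± 0.09, adjusted p = 0.000780). Polr3d and Polr3f rose by 0.32 ± 0.10 (adjusted p = 0.0317) and 0.28 ± 0.09 (adjusted p = 0.0298). The Polr3d call was lost without HC_control replicate 1 or 2 or HC_gentamicin replicate 2 or 3 (adjusted p of 0.0821 to 0.122). Polr3a, the largest subunit, had a log2 change of 0.01 ± 0.06 (adjusted p = 0.938).

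Polr3e, a peripheral subunit of polymerase III, was the only polymerase gene that fell. Its scores were 47.6, 50.2 and 50.9 in control hair cells and 34.4, 36.7 and 41.8 after the drug (-0.40 ± 0.08, adjusted p = 0.00256). The lack of overlap between its groups was a condition of naming it. Of the 7 subunits that the polymerases share, Polr2h and Polr1c rose. Polr2h, present in all nuclear polymerases, went from 17.2, 18.4 and 19.1 to 26.7, 28.8 and 26.8 (0.59 ± 0.11, adjusted p = 0.00238).

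TFIID genes moved in both directions. Of 15 tested, 7 rose and 2 fell (46.7% and 13.3%, against 14.8% and 18.4% of all genes), with log2 changes from -0.29 to 1.28. Taf4b, a paralog of Taf4a best known from gonads, had the lowest level per kilobase of all members tested. In control hair cells its scores were 5.39, 5.02 and 5.70, and after gentamicin they were 13, 14.6 and 11.6 (1.28 ± 0.17, adjusted p = 0.000296). Every treated replicate lay above every control, which was a condition of naming the gene. Taf4a, the ubiquitous form, had 42.5, 46.6 and 49.2 before and 36.3, 43.8 and 45.0 after, groups that overlapped (-0.15 ± 0.10, adjusted p = 0.279).

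Taf9b, the paralog of the histone-fold subunit Taf9, rose from 12.2, 8.87 and 11 to 18.9, 17.4 and 23.0 (0.89 ± 0.15, adjusted p = 0.00121). Taf9 rose less, by 0.26 ± 0.08 (adjusted p = 0.0339), and 73.8% of its exon bases belong to Ak6 as well, for which no value was fitted. The Taf9 call was lost without HC_control replicate 2 or 3 or HC_gentamicin replicate 1 or 2 (adjusted p of 0.102 to 0.110). Taf5, a TFIID scaffold subunit, rose by 0.50 ± 0.12 (adjusted p = 0.00809), and Taf5l, which takes its place in the SAGA coactivator, had 0.18 ± 0.08 (adjusted p = 0.107). For Taf6 and Taf6l, the same kind of pair, the log2 changes were -0.27 ± 0.06 (adjusted p = 0.00512) and -0.06 ± 0.09 (adjusted p = 0.665). Differences between paralogs of a pair were not tested.

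Taf3 rose by 0.60 ± 0.13 (adjusted p = 0.00577), its partner Taf10 fell by 0.29 on the log2 scale (SE 0.10, adjusted p = 0.0414) and Taf8, which also pairs with Taf10, rose by 0.66 ± 0.09 (adjusted p = 0.000345). Taf10 went from 48.8, 47.6 and 43.9 to 41.1, 35.8 and 38.2, without overlap, but its call was lost with scaling to total reads (adjusted p = 0.160), with median-of-ratios scaling (adjusted p = 0.0509) and without HC_control replicate 1 or 2 or HC_gentamicin replicate 2 or 3 (adjusted p of 0.0826 to 0.140). Of its exon bases 45.9% are shared with Ilk, which had a log2 change of -0.17 (adjusted p = 0.146). Taf6 shares 26.5% with Ap4m1 (-0.09, adjusted p = 0.666). Taf1, the largest TFIID subunit, had -0.11 ± 0.06 (adjusted p = 0.180), and Taf2, which contacts the start site, rose by 0.41 ± 0.09 (adjusted p = 0.00472). Taf15, an RNA-binding protein of the FET family, rose by 0.21 ± 0.06 (adjusted p = 0.0204), but not without HC_control replicate 1 or 2 or HC_gentamicin replicate 2 or 3 (adjusted p of 0.0549 to 0.0787).

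**Figure D3:**
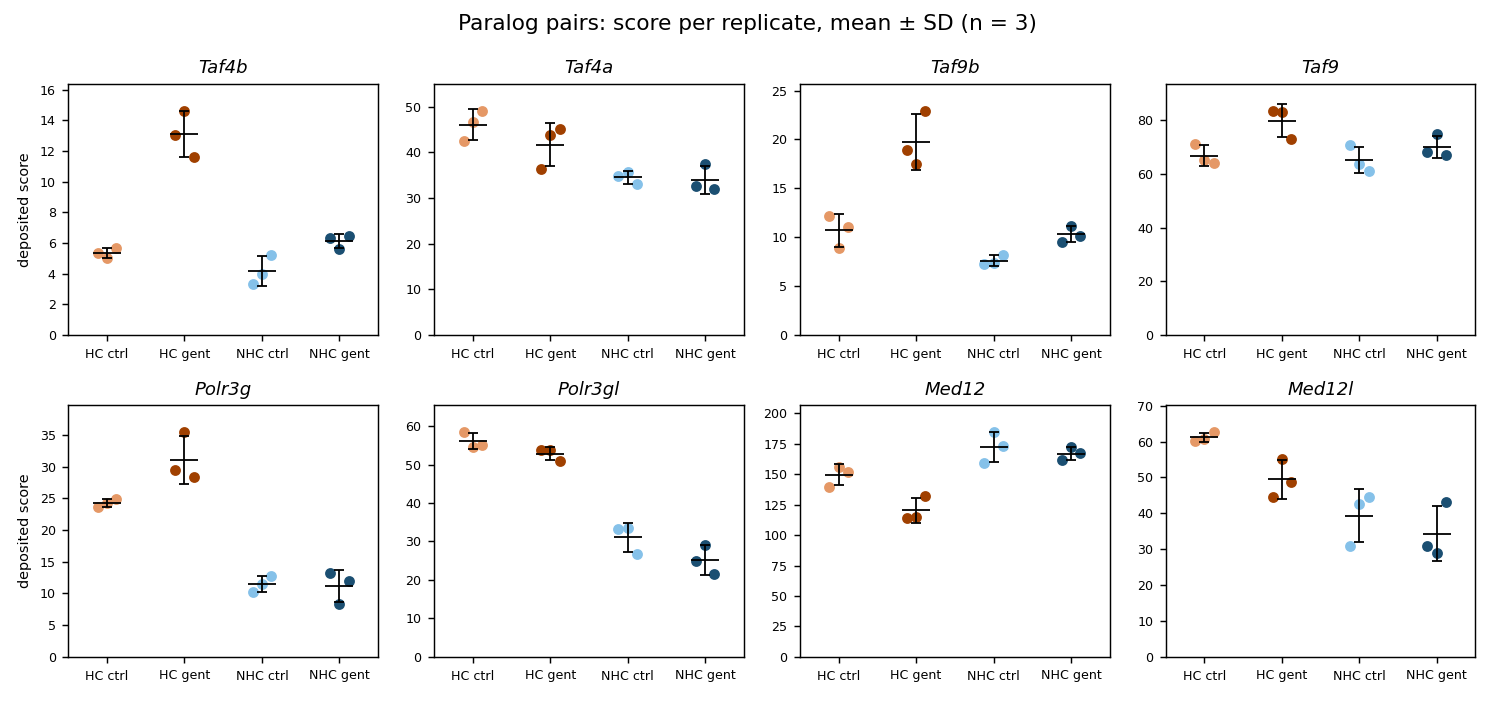
Deposited scores in each replicate of 4 pairs of paralogs in control (ctrl) and gentamicin-treated (gent) hair cells (HC) and non-hair cells (NHC), with the mean and SD of 3 replicates as black bars. Taf4b and Taf9b rise in hair cells from controls of 5.02 to 5.70 and 8.87 to 12.2 to treated scores of 11.6 to 14.6 and 17.4 to 23.0.

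In Mediator the changes called with the deposited scores sat in single subunits. Med26 is a middle subunit that joins Mediator to polymerase II and recruits elongation factors. Its scores were 24.5, 24.5 and 22.9 in control hair cells and 53.3, 65.9 and 57.1 after gentamicin (1.29 ± 0.10, adjusted p = 1.56e-05). The treated and control replicates were far apart. With the deposited scores this was the largest rise of any member, just above that of Taf4b (1.28). The rank depended on the 1 added to each score. With that 1 removed, mean levels per kilobase of exon rose from 7.66 to 19.3 for Med26 and from 0.848 to 2.35 for Taf4b, the larger ratio. Med17, the central head subunit, rose from 41.3, 40.4 and 40.9 to 60.1, 63.9 and 57.7 (0.57 ± 0.06, adjusted p = 0.000111), and Med7 of the middle module from 32.0, 31.5 and 33.1 to 46.9, 50.3 and 40.3 (0.50 ± 0.10, adjusted p = 0.00404). Neither gene's groups overlapped, which was a condition of naming them.

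Med1, the subunit through which nuclear receptors reach Mediator, fell from 74.5, 77.4 and 77.0 to 52.6, 60.3 and 55.7 (-0.44 ± 0.07, adjusted p = 0.00115), the largest fall among members. Med12 of the kinase module fell from 140, 156 and 152 to 114, 114 and 132 (-0.32 ± 0.08, adjusted p = 0.0113). Its paralog Med12l had a similar estimate with a wider error (-0.31 ± 0.16, adjusted p = 0.162). Med13 and Med13l, which link that module to the rest of Mediator, had 0.17 ± 0.07 (adjusted p = 0.0949) and -0.05 ± 0.07 (adjusted p = 0.665). Med25 of the tail, which binds activators, fell by 0.27 on the log2 scale (SE 0.07, adjusted p = 0.0146). Without HC_control replicate 2 neither Med12 (adjusted p = 0.0507) nor Med25 (adjusted p = 0.0513) was called, nor Med25 without HC_gentamicin replicate 1 (adjusted p = 0.0521). By module, 2 of 7 head genes rose, 2 rose and 1 fell of 9 in the middle, 1 rose and 1 fell of 9 in the tail, and 1 of 4 kinase module genes fell. Of all genes tested, 14.8% rose and 18.4% fell.

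Integrator split likewise. Ints6 went from 44.4, 41.5 and 43.7 in control hair cells to 71.7, 83.9 and 78.1 (0.85 ± 0.08, adjusted p = 5.58e-05) and Ints8 from 64.9, 59.7 and 61.5 to 109, 113 and 108 (0.83 ± 0.10, adjusted p = 0.000235). Ints6 and Ints8 belong to the arm of the complex that holds a phosphatase. All treated replicates exceeded all controls, which was a condition of naming these genes. Ints8 shares 609 exon bases, 8.15% of its own, with Ccne2, which had a log2 change of 0.59 (adjusted p = 0.0464). Ints12 rose from 15.1, 13.6 and 11.4 to 20.7, 22 and 18.8 (0.63 ± 0.12, adjusted p = 0.00238).

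Ints9, the partner of the RNA-cutting subunit, fell from 26.8, 26.5 and 25.3 to 19.7, 19.5 and 23.2 (-0.34 ± 0.11, adjusted p = 0.0375). Ints2 had 59.5, 55.3 and 68.8 before and 48.6, 53.4 and 53.4 after (-0.24 ± 0.08, adjusted p = 0.0441), a fall that left only a narrow gap between the groups. Both calls were among the least firm. Ints9 lost its call when HC_control replicate 1, 2 or 3 or HC_gentamicin replicate 1 or 2 was left out (adjusted p of 0.0663 to 0.121), and Ints2 when HC_control replicate 1 or 3 or any HC_gentamicin replicate was left out (adjusted p of 0.06 to 0.164). Ints9 was also lost with voom weights (adjusted p = 0.0541), and Ints2 with median-of-ratios scaling (adjusted p = 0.0565), a replicate block (adjusted p = 0.053) and the hair cell groups fitted alone (adjusted p = 0.0712). The subunits under other symbols included Asun (0.39 ± 0.08, adjusted p = 0.00330) and Cpsf3l, the RNA-cutting subunit itself (0.27 ± 0.09, adjusted p = 0.0358), both higher.

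Stretches before the start sites of members with large changes in hair cells are shown for the rising Med26 and Taf9b and the falling Polr3e and Med12, taken in the order of their change among members whose stretch was clear of annotated exons for at least 150 bases. Taf4b, Taf1d, Med1 and Ints9 had larger changes than some of these and are not shown, Taf1d and Med1 because too few bases were clear and Taf4b because of where it lies. They come from RefSeq promoters on GRCm38.p6, which held 74 of the 92 members, and are written 5′ to 3′ on the gene's strand. Capitals mark every match to the motifs searched on both strands: the TATA box (TATAAA), the CCAAT box (CCAAT), the GC box (GGGCGG), an ETS motif (CCGGAAG), the AP-1 motif (TGANTCA), the NRF1 motif, the cyclic AMP response element (TGACGTCA) and the B box of transfer RNA genes, the last added after the Polr3e stretch had been read.
Med26, chr8:72548311-72548560, minus strand, rose: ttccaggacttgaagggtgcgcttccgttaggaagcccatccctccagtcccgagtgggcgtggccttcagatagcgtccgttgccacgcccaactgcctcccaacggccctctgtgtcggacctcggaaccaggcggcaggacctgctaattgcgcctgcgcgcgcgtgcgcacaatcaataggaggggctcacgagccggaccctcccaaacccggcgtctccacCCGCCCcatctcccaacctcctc
Taf9b, chrX:106221159-106221408, minus strand, rose: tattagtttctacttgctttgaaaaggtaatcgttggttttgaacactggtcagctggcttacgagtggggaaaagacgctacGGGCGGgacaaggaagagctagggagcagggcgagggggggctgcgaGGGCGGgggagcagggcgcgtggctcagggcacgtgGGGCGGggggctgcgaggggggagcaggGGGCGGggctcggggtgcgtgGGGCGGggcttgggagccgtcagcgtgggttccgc
Polr3e, chr7:120917528-120917743, plus strand, fell: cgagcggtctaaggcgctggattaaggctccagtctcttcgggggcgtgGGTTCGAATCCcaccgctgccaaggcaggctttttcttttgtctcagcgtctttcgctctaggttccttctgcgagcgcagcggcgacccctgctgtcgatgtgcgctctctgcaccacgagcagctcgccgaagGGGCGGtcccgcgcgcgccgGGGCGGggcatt
Med12, chrX:101273841-101274029, plus strand, fell: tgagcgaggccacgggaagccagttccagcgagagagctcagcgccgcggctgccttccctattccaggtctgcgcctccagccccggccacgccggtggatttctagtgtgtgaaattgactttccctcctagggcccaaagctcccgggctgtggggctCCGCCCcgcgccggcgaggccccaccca

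These stretches were 65.3% to 68.3% G and C. Those of Med26 and Taf9b were 250 bases long and reached the start site. Those of Polr3e and Med12 were 216 and 189 bases long and ended 34 and 61 bases before it. The GC box matched 5 times before Taf9b, 2 times before Polr3e and 1 time each before Med26 and Med12, so rising and falling members alike held it. The numbers of matches come from unequal lengths and cannot be compared directly. In the whole table, 63.5% of the 74 members and 32.9% of 27025 promoters had a GC box in the 250 bases before the start site, counting overlapping matches. The ETS motif was found in 23.0% of members and 7.05% of all promoters, the CCAAT box in 37.8% and 34.5%, and the TATA box in 13.5% and 13%. For the AP-1 motif the shares were 2.70% and 6.87%, for the cyclic AMP response element 4.05% and 1.62%, and for the NRF1 motif 1.35% and 0.781%. The B box matched before Polr3e alone among members and in 0.111% of all promoters. Members' stretches were richer in G and C than those of all genes (medians 58.4% and 52%), and a match is a string of letters, not a site shown to be bound.

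In non-hair cells few of these genes were called after the drug. Polr1a, Polr2a and Polr3b were called higher, 3 of 91 members (3.30%), where 0.236% of all genes tested were higher and 0.106% lower. Limma called 0 members lower (0 also with voom weights). At an unadjusted p under 0.05, limma had 20 members higher and 1 lower, against 1424 and 1330 of 16089 genes tested. The log2 change was positive in 70 of 91 members, with a median of 0.073, against -0.005 for all genes tested. Polr1a, the catalytic subunit of polymerase I, had scores of 47.3, 45.4 and 50.8 in control non-hair cells and 66.5, 67.5 and 65.6 after gentamicin (0.48 ± 0.07, adjusted p = 0.0316). Polr2a, the catalytic subunit of polymerase II, had 205, 210 and 210 before and 271, 346 and 280 after (0.51 ± 0.09, adjusted p = 0.0360). For Polr3b the scores were 25.3, 23.5 and 28.8 before and 36.4, 39.3 and 38.0 after (0.56 ± 0.09, adjusted p = 0.0327).

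In all 3 genes the treated replicates lay above the controls, and for Polr1a the gap was wider than the spread within either group. These calls were not stable: all 3 were lost when only the compared groups were fitted (adjusted p = 0.391), with a replicate block (adjusted p = 0.0622), and when NHC_control replicate 1 or 2 or NHC_gentamicin replicate 1 or 2 was left out (adjusted p of 0.0534 to 0.178). Without NHC_control replicate 3, Polr2a was lost (adjusted p = 0.0630). Polr1b was near the threshold, with 22.7, 20 and 22.1 before and 27.8, 37.0 and 28.8 after (0.52 ± 0.11, adjusted p = 0.0686). Limma called none of the 30 Mediator, 11 Integrator and 22 TAF genes tested, and 0 were called with voom weights. Its unadjusted p was under 0.05 for 3, 3 and 7 of them, all higher after the drug. By the criteria of the study, 7 members rose and 0 fell in non-hair cells, against 3.18% and 2.26% of all genes.

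The difference between the responses was tested as an interaction. It was called for 18 members, and 11 of these responded more positively in hair cells and 7 more negatively, or 12.1% and 7.69% of 91 against 6.85% and 6.56% of all genes tested. By the criteria of the study the counts were 12 and 7, against 7.71% and 8.06%. The split was 15 and 4 when replicates were scaled to total reads, where 9.32% of all genes were called in the positive and 4.45% in the negative direction. Taf1d differed by 1.19 ± 0.18 (adjusted p = 0.00348). Its non-hair cell scores were 36.1, 38.7 and 32.0 before and 32.2, 30.3 and 32.0 after. Med26 differed by 1.18 ± 0.13 (adjusted p = 0.000995), with 22.5, 21.3 and 18.9 before and 22.4, 22.6 and 22.6 after in non-hair cells. Taf1a differed by 0.86 ± 0.16 (adjusted p = 0.00752), Ints6 by 0.65 ± 0.11 (adjusted p = 0.00556) and Med17 by 0.54 ± 0.09 (adjusted p = 0.00444). In non-hair cells their changes were -0.14, 0.20 and 0.03, none of them called.

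Beside the 6.85% of all genes called in the positive and 6.56% in the negative direction, 3 of the 4 SL1 TAFs had a called positive difference. Taf1c had no called difference (0.17 ± 0.12, adjusted p = 0.366). Among the Polr1 genes only Polr1e had one (0.43 ± 0.12, adjusted p = 0.0325). This call was lost when HC_control replicate 1 or 2, HC_gentamicin replicate 1 or 2, NHC_control replicate 1 or 3 or NHC_gentamicin replicate 1 was left out (adjusted p of 0.0529 to 0.0809). For Polr1a and Polr3b, called in both populations, the differences were -0.15 ± 0.10 (adjusted p = 0.348) and 0.02 ± 0.12 (adjusted p = 0.947). In the other direction, Polr3e differed by -0.58 ± 0.11 (adjusted p = 0.00751): its non-hair cell scores were 39.6, 40.3 and 41.9 before and 45.2, 46.1 and 46.7 after, so that it stood lower in hair cells and higher in non-hair cells after the drug, the latter without a call (0.18, adjusted p = 0.261). Ints2 (-0.60 ± 0.11, adjusted p = 0.00844) and Taf10 (-0.62 ± 0.14, adjusted p = 0.0151) had the same arrangement. The interaction for Polr2a (-0.42 ± 0.12, adjusted p = 0.0422) was lost under both other scalings, without a minimum of reads (adjusted p = 0.0517) and without any 1 HC_control, HC_gentamicin or NHC_control replicate (adjusted p of 0.0507 to 0.0919).

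**Figure D4:**
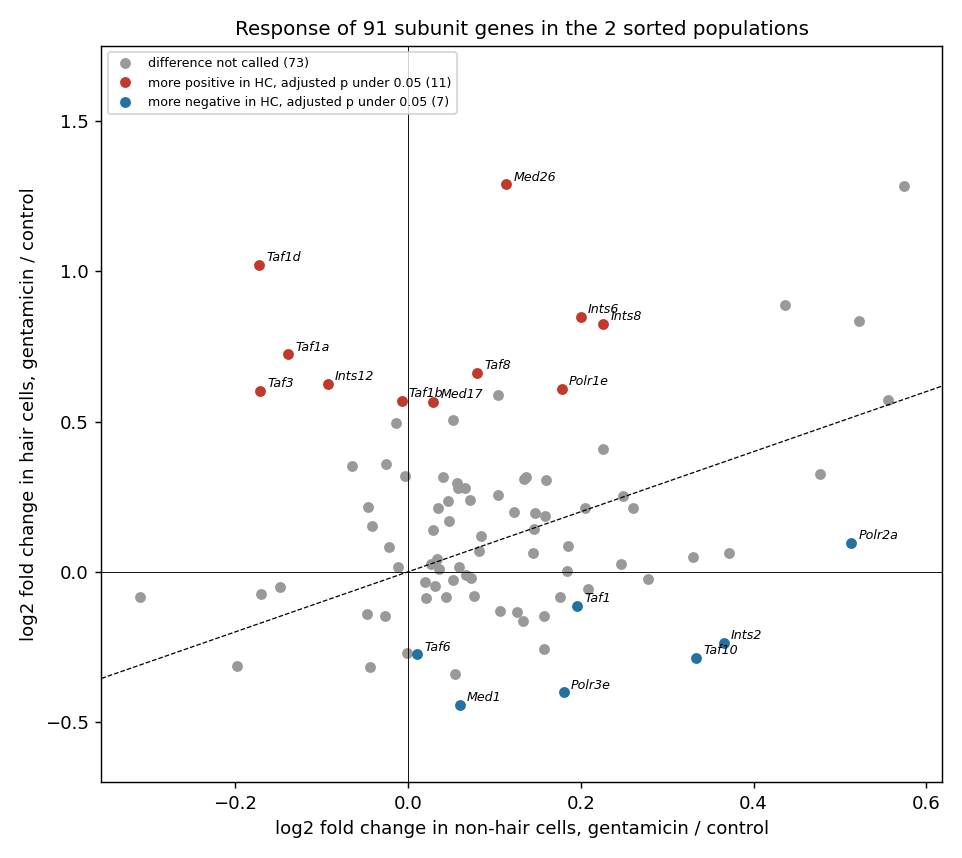
Log2 fold change after gentamicin in hair cells (vertical axis) against non-hair cells (horizontal axis) for the 91 genes tested, with equal responses on the dashed line; red and blue mark the 11 and 7 genes whose responses differed in the interaction test. Med26 and Taf1d stand at 1.29 and 1.02 in hair cells with 0.11 and -0.17 in non-hair cells.

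Without drug, the populations differed in most of these genes. Control hair cells had higher levels of 44 members (48.4%) and lower levels of 18 (19.8%) than control non-hair cells, against 31.9% and 42.1% of all genes tested. By the criteria of the study these were 37 and 14 members, against 28.1% and 37.7%. The median log2 ratio was 0.20 for members and -0.12 for all genes. Scaling by the median of ratios moved the median of all genes to -0.01, by more than 0.1, and gave 53 members higher and 11 lower, against 36.7% and 37.6% of all genes; the median of members exceeded that of all genes by 0.32 with the deposited scores and by 0.33 with this scaling. By group, 7 Integrator genes were higher and 1 lower, 11 TAF genes higher and 2 lower, 15 polymerase genes higher and 8 lower, and 11 Mediator genes higher and 7 lower. All mesenchyme, endothelium and leukocyte markers on the lists were lower in hair cells, as given above, and their part in these ratios was not tested.

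Ints10 had the largest ratio. Its scores were 125, 125 and 120 in control hair cells and 41.9, 40.4 and 40.0 in control non-hair cells, a log2 ratio of 1.60 ± 0.07 (adjusted p = 3.38e-09). The populations did not come near each other. Ints1, the largest Integrator subunit, had 210, 210 and 208 against 115, 125 and 129 (0.77 ± 0.06, adjusted p = 6.56e-07). Ints12 was the only Integrator gene that was lower in hair cells, with 15.1, 13.6 and 11.4 against 21.5, 20.1 and 19.8 (-0.63 ± 0.12, adjusted p = 0.000461), and it was among the genes that rose after gentamicin.

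In the Mediator tail 4 genes were higher and 4 lower of 9 (44.4% each), against 31.9% and 42.1% of all genes tested. Med27 had 44.1, 40.6 and 37.7 in control hair cells and 16.1, 19.1 and 21.6 in control non-hair cells (1.11 ± 0.11, adjusted p = 2.23e-06), and Med25 had 213, 214 and 208 against 109, 96.5 and 100 (1.05 ± 0.07, adjusted p = 1.06e-07). By contrast Med29 had 12.2, 12.4 and 9.71 against 25.2, 19.7 and 21.4 (-0.95 ± 0.16, adjusted p = 0.000216), and Med15 was lower by 0.50 on the log2 scale (-0.50 ± 0.07, adjusted p = 3.51e-05). All of these belong to the same module. In the kinase module, Med12l was higher in hair cells (0.66 ± 0.16, adjusted p = 0.00334) and Med12 lower (-0.20 ± 0.08, adjusted p = 0.0355). The Med12 call was lost under median-of-ratios scaling (adjusted p = 0.410) and without HC_control replicate 1 or 3 or NHC_control replicate 2 or 3 (adjusted p of 0.0572 to 0.137). Med12l shares 15.3% of its exon bases with Igsf10, which was lower in hair cells (-3.62, adjusted p = 1.62e-07).

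Polymerase III genes were mostly higher in hair cells, 8 of 10, with 1 lower, against 31.9% and 42.1% of all genes tested. Both forms of a paralogous subunit were higher: Polr3g had 23.6, 24.2 and 24.9 against 10.3, 11.54 and 12.8 (1.08 ± 0.16, adjusted p = 9.11e-05), and Polr3gl had 58.4, 54.6 and 55.1 against 33.1, 33.4 and 26.8 (0.86 ± 0.12, adjusted p = 3.35e-05). Polr3d was lower (-0.61 ± 0.10, adjusted p = 0.000185). After gentamicin neither Polr3g (0.35 ± 0.16, adjusted p = 0.119) nor Polr3gl (-0.09 ± 0.12, adjusted p = 0.606) was called in hair cells.

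Polymerase II genes went both ways. Polr2m, whose product binds polymerase II and limits initiation, was the most reduced member in hair cells, with 119, 118 and 113 against 259, 236 and 231 (-1.05 ± 0.07, adjusted p = 5.82e-08). Polr2b, the second largest subunit, had 133, 121 and 130 against 70.7, 73.1 and 72.4 (0.83 ± 0.06, adjusted p = 2.14e-07). The catalytic subunits stood at 0.10 ± 0.09 for Polr2a (adjusted p = 0.309), 0.14 ± 0.07 for Polr1a (adjusted p = 0.0972) and 0.32 ± 0.06 for Polr3a (adjusted p = 0.000869). Of the 7 shared subunits, 3 were higher and 4 lower (42.9% and 57.1%, against 31.9% and 42.1% of all genes tested). Polr1e was higher by 0.88 ± 0.08 (adjusted p = 1.48e-06).

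Among TAFs, Taf6l had 54.7, 55.1 and 54.2 in control hair cells and 28.4, 21.6 and 24.0 in control non-hair cells (1.16 ± 0.09, adjusted p = 4.04e-07), and Taf15 was higher by 0.62 ± 0.06 (adjusted p = 2.45e-06). Taf1d was lower (-0.68 ± 0.13, adjusted p = 0.000405), and after gentamicin its hair cell scores of 36.3 to 50.9 overlapped the 32.0 to 38.7 of control non-hair cells. Taf12 was also lower (-0.33 ± 0.13, adjusted p = 0.0360), a call that was lost under median-of-ratios scaling (adjusted p = 0.151), with the control groups fitted alone (adjusted p = 0.0524) and without any HC_control replicate or NHC_control replicate 1 or 3 (adjusted p of 0.0565 to 0.149). Taf7 was higher (0.29 ± 0.12, adjusted p = 0.0374), and this was lost without HC_control replicate 1 or 2 or any NHC_control replicate (adjusted p of 0.0547 to 0.115).

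**Figure D5:**
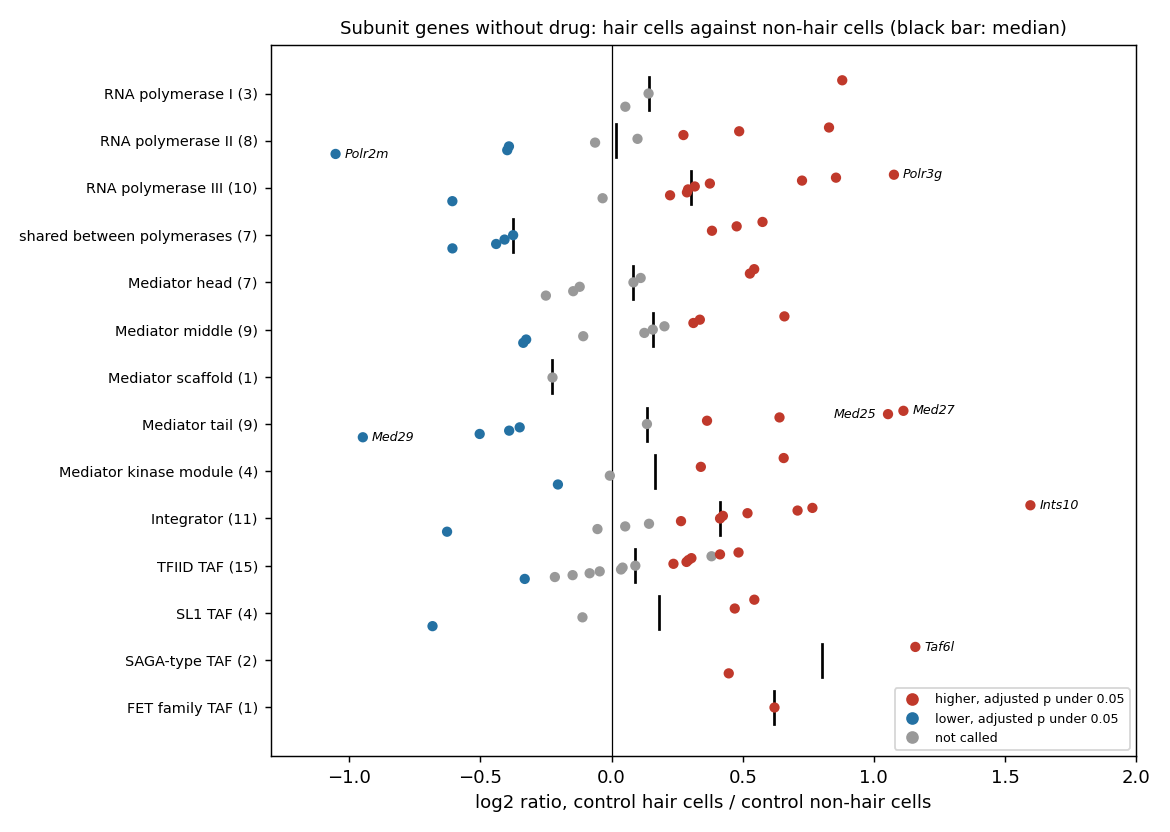
Log2 ratio of control hair cells to control non-hair cells for the 91 genes tested, by part of each complex, with the number of genes in brackets; each point is a gene (red higher, blue lower, grey not called) and the black bar is the median of the part. Ints10 lies farthest to the right at 1.60 and Polr2m farthest to the left at -1.05.

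Levels of different genes were compared as score per kilobase of exon, over the union of annotated exons. In control hair cells the median was 29.3 per kilobase for the 8 genes particular to polymerase II, 7.66 for the 10 of polymerase III and 4.36 for the 3 of polymerase I. The medians in control non-hair cells were 24.8, 6.68 and 3.55. Polr2a stood at 31.4 ± 0.9 per kilobase (SD, n = 3), Polr3a at 7.39 ± 0.35 and Polr1a at 4.36 ± 0.15 in control hair cells, so that their order held beyond the replicate spread. By group the medians in control hair cells were 10.5 for polymerases, 9.74 for Mediator, 8.45 for TAFs and 8.17 for Integrator, and with the longest transcript in place of all exons they were 14.7, 12.4, 9.76 and 16.4, so that the order of the groups depended on the length used. Polr2g was the highest in control hair cells, at 47.8 per kilobase, and Polr2m in control non-hair cells, at 99.4. Taf4b was the lowest in both, at 0.848 ± 0.066 in control hair cells and 0.620 ± 0.190 in control non-hair cells.

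Within pairs of paralogs, levels per kilobase in control hair cells were 9.76 ± 0.72 for Taf4a, 31.0 ± 1.8 for Taf9 against 3.07 ± 0.54 for Taf9b, and 34.4 ± 1.3 for Polr3gl against 5.90 ± 0.16 for Polr3g. They were 19.3 ± 1.1 for Med12 against 4.71 ± 0.10 for Med12l, and 13.3 ± 0.8 for Med13 against 7.99 ± 0.24 for Med13l, a gap that all but closed with the longest transcript (13.7 and 13.3). Taf5l, at 15.3 ± 0.6, was above Taf5, at 3.46 ± 0.12, while Taf6, at 15.7 ± 0.6, was above Taf6l, at 10.7 ± 0.1 (26.9 and 21.7 with the longest transcript). The longest transcript in place of all exons moved the polymerase II median to 31.8 and that of polymerase I to 5.61.

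The factors that work with these complexes, on a list of 75 genes outside the symbol rule, were counted beside them, and in hair cells after gentamicin 32 rose (42.7%) and 4 fell (5.33%), where 14.8% of all genes tested rose and 18.4% fell. Of 17 general factors of polymerase II, 11 rose, and limma called 0 lower (0 at an unadjusted p under 0.05). Gtf2h1, a core subunit of the repair and initiation factor TFIIH, rose by 0.92 ± 0.10 (adjusted p = 9.02e-05), and Cdk7, its kinase, by 0.48 ± 0.07 (adjusted p = 0.000523). Of 26 pausing and elongation genes, 9 rose and 1 fell. Hexim1, which holds the elongation kinase P-TEFb inactive, rose by 1.73 ± 0.11 (adjusted p = 8.62e-06), and Ccnt1, the cyclin of that kinase, by 0.61 ± 0.08 (adjusted p = 0.000373), whereas Nelfcd, a pausing factor, fell by 0.22 (SE 0.06, adjusted p = 0.0226).

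Of 18 factors of polymerases I and III, 7 rose and 2 fell (38.9% and 11.1%, against 14.8% and 18.4% of all genes tested). Rrn3, which readies polymerase I for initiation, rose by 0.30 ± 0.06 (adjusted p = 0.00371), and Ubtf, which coats the ribosomal genes, by 0.25 ± 0.07 (adjusted p = 0.0138). Maf1, a repressor of polymerase III, fell by 0.35 (SE 0.08, adjusted p = 0.00507), and its target Brf1 fell by 0.19 (SE 0.07, adjusted p = 0.0432) while Brf2 rose by 0.60 ± 0.10 (adjusted p = 0.00118). Of 14 further subunits, 5 rose and 1 fell (35.7% and 7.14%, beside the same shares of all genes). Cdk8 of the Mediator kinase module rose by 0.22 ± 0.07 (adjusted p = 0.0358) and its paralog Cdk19 fell by 0.45 (SE 0.10, adjusted p = 0.00621). Of 5 stress response genes, Ddit3 and Jun rose by 1.46 and 1.45 and Fos fell by 1.15 on the log2 scale in hair cells (adjusted p of 5.58e-05, 0.00536 and 0.00897). In non-hair cells limma called 0 of these 75 genes (at an unadjusted p under 0.05, 15 were higher and 2 lower). Of all genes tested, 0.236% were called higher there and 0.106% lower, too few for 0 of 75 to set these genes apart.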

How the data were processed

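Poly(A) RNA of each replicate was read as 50 bp single-end reads, which the authors trimmed and aligned to mm10 with TopHat2 (submitters' processing notes). The deposited values are scores, reads scaled per replicate plus 1, which the authors' methods call RPKM although they were not divided by length. Since 83.3% to 84.5% of low values per replicate came out as whole reads within 0.1 read, no count model was used. Genes with at least 100 recovered reads over all 12 replicates were tested on log2 scores with limma 3.58.1 in R 4.3.3, as 1 fit over the 4 groups, with Benjamini-Hochberg adjustment over 16089 genes and a threshold of 0.05. An exact permutation test of 3 against 3 replicates cannot go below p = 0.1. The fit was tested on simulated data.

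Members and gene lists were chosen with earlier results of these data known. Named genes were, per group of subunits, up to 3 rises and 3 falls in hair cells without overlap and up to 2 control differences in each direction, every call in non-hair cells, the 6 smallest interaction p-values, the catalytic subunits and fixed paralog pairs; other genes are named from the fixed lists or were chosen after their values were seen. Exons came from GENCODE M21 on GRCm38, which matched all 92 members, 1 of them through an older symbol. The strand setting of the read counting is not given in the sources used here. Replicate numbers paired control hair cells with control non-hair cells, as deviations of equally numbered replicates from their group means correlated over genes (r = 0.216, 0.316 and 0.200). They did not pair drug with control (0.0367, 0.0522 and 0.0369 in hair cells and 0.208, -0.233 and 0.683 in non-hair cells). Other scalings, offsets, minimum reads, voom weights, a replicate block, fits of the compared groups alone and fits without each replicate were tried.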

Additional observations from a re-analysis of the deposited data

Results flagged for a closer look

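The response to gentamicin differed between hair cells and non-hair cells for 18 members in the interaction test of limma (adjusted p under 0.05). The response was more positive in hair cells for Taf1d (by 1.19 on the log2 scale), Med26 (1.18), Taf1a (0.86), Taf3 (0.77), Ints12 (0.72), Ints6 (0.65), Ints8 (0.60), Taf8 (0.58), Taf1b (0.58), Med17 (0.54) and Polr1e (0.43). It was more negative in hair cells for Taf10 (-0.62), Ints2 (-0.60), Polr3e (-0.58), Med1 (-0.50), Polr2a (-0.42), Taf1 (-0.31) and Taf6 (-0.29). The Ints8 call was lost without HC_control replicate 2 (adjusted p = 0.0589) or HC_gentamicin replicate 2 (adjusted p = 0.0555). Taf6 was lost without any 1 HC_control, HC_gentamicin or NHC replicate except HC_gentamicin replicate 3 and NHC_control replicate 1 (adjusted p of 0.0539 to 0.112), and also with scaling to total reads (0.117), median-of-ratios scaling (0.0651), a replicate block (0.0612) and voom weights (0.0518).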

How the results depend on the processing

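For the 46 members picked by the naming rules, no call changed direction under any alternative. Calls held in every alternative for 19 of 27 of these members in hair cells, 0 of 3 in non-hair cells, 10 of 14 in the interaction and 27 of 32 between controls. These counts leave out other genes named above, such as Taf1b, Taf1c, Taf2, Taf3, Taf8, Polr1c, Polr3f and the listed factors. All 4 SL1 TAFs were called higher in hair cells with voom weights and with both other scalings. Of 520 counts per group of subunits and setting, 81 moved beyond 1.5 times. Scaling to total reads gave 3 members lower in hair cells instead of 8 and 4 instead of 7 in the interaction, and median-of-ratios scaling gave 11 instead of 18 between controls. The criteria of the study gave 5 lower in hair cells and 7 higher in non-hair cells. In non-hair cells 0 instead of 3 were higher when only the 2 compared groups were fitted, where 0 of 16089 genes were called. With a replicate block, non-hair cells had 0 higher, against 0.0497% of all genes tested. Hair cells had 30 higher and 7 lower, against 15.1% and 20.1%. The interaction had 11 and 5, against 6.93% and 7.39%, and controls 44 and 19, against 32.1% and 42.6%. The samples of a block share a number, and no label says what it marks. The cause of these shifts was not tested.

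Without 1 replicate each, 21 to 26 members were higher and 4 to 6 lower in hair cells. All genes tested lost calls as well, with 10.2% to 13.7% higher and 10.8% to 15.7% lower. Fewest members were lower without HC_control replicate 2. The count also moved beyond 1.5 times without HC_control replicate 1 or HC_gentamicin replicate 1 or 2 (5 each). In non-hair cells 0 to 3 were higher, with 0 without NHC_control replicate 1 or 2 or NHC_gentamicin replicate 1 or 2, and 0 lower in each. Of all genes tested, 0.0124% to 0.541% were higher there and 0 to 0.448% lower. In the interaction 8 to 12 members were higher and 4 to 6 lower, against 4.18% to 7.20% and 3.00% to 7.57% of all genes. The lower count was 4 without any 1 HC_control replicate, HC_gentamicin replicate 1 or 2 or NHC_control replicate 2. Between controls 38 to 46 members were higher and 13 to 17 lower, against 29.8% to 30.8% and 39.3% to 40.8% of all genes.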
